A study of Mus musculus with 2 samples.

Results

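Cluster 2 is a group of 1224 cells among 7863 single cells of the mouse colonic epithelium, taken by the cluster number that the authors deposited for each cell. It held 704 of 4210 cells of the Mettl14 WT library and 520 of 3653 cells of the Mettl14 KO library, or 16.7% (exact 95% interval 15.6 to 17.9) and 14.2% (13.1 to 15.4). Of the cells in both goblet-like clusters, 1 and 2, it made up 53.7% in WT (51.0 to 56.5) and 40.8% in KO (38.1 to 43.5). Live EpCAM+ cells of C57BL/6 mice had been sorted by flow cytometry and sequenced from the 3' end on the 10x Genomics platform, with 1 library for each genotype. An age or interval of 2 weeks is named in the series text, with no starting point. The labels give neither the number of animals in a library nor the Cre driver or allele behind the KO genotype. Mettl14 encodes a subunit of the complex that writes N6-methyladenosine (m6A) on RNA.

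Goblet cells are the mucus-secreting cells of the intestine. They build the gel-forming mucin Muc2 in the endoplasmic reticulum, decorate it with O-linked sugars in the Golgi and release it from granules, and the gel then separates the colonic surface from bacteria. Goblet cells differ along the colon and along the crypt in the proteins they secrete beside Muc2. Positional identity along the gut is reflected in Hox genes, among which the Hoxb13 and Hoxd13 members are expressed toward the rear end of the body.

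The 5 genes that mark the cluster are Muc2, Plet1, a surface protein of epithelial progenitors, B3gnt6, the core 3 enzyme of mucin O-glycans, Mt3, a metallothionein, and Kcnh3, a voltage-gated potassium channel. RefSeq promoters of build GRCm38.p6, running from 250 bases before to 50 after the gene start, were at hand for 3 of the 5. They are shown because these genes are among the markers of cluster 2. Capitals mark every match, on either strand, to one of 4 motifs: TTTATNG (CDX core), CAGCTG (E-box), TGCNCNC (metal response core) and TATAA (TATA box core). The metal response pattern is a loose one, with any base allowed at each N. The TATAA motif was added after the promoter letters had been read.
Muc2 (chr7:141690090-141690389, plus strand): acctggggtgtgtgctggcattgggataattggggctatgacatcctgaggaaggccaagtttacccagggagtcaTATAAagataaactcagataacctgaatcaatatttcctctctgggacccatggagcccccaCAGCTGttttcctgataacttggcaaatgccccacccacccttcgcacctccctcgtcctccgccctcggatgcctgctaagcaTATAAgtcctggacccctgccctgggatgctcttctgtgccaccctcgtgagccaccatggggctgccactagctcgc
Plet1 (chr9:50494275-50494574, plus strand): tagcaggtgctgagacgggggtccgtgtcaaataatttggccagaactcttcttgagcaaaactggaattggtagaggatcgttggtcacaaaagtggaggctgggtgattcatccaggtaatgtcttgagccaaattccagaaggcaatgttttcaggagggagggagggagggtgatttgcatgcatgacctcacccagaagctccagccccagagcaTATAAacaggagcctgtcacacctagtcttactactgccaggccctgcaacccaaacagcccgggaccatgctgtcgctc
Mt3 (chr8:94152357-94152656, plus strand): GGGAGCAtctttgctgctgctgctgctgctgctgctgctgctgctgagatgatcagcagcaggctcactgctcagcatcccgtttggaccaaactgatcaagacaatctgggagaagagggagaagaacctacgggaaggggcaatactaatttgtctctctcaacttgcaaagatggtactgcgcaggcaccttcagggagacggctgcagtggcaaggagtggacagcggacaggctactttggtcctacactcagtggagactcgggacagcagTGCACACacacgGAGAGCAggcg

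TATAA stood at -28 to -24 from the Muc2 start and at -30 to -26 from the Plet1 start, with a further match at -174 to -170 for Muc2. Muc2 also held 1 E-box, at -112 to -107. Mt3 held 3 matches to the metal response core and none to TATAA. Of 32851 promoters of the same length, 24.9% held TATAA, 16.3% the E-box and 51.0% the loose metal response pattern. The CDX core, which none of the 3 promoters held, was in 10.9%.

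Depth differed between the libraries. Cluster 2 summed to 10021444 UMIs in WT and 5575612 in KO, with a median of 12674.5 and 9241 UMIs per cell. Levels are therefore given as CPM, the UMIs of a gene scaled to a common total over the cells of a cluster in a library, and ratios are log2 of KO over WT unless stated. Brackets hold 95% intervals, which cover counting error only. With 1 library per genotype there is no replicate check, no p-value and no test, and differences between the libraries cannot be told apart from differences between preparations or animals. Of the barcodes, 2 occurred in both libraries, and 1 of those cells lay in cluster 2. Cells with UMIs of both Xist and Y-linked genes, which can mark droplets with more than 1 cell, made up 9.94% of cluster 2 in WT and 8.46% in KO.

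The goblet-like label rests on these markers, and the clusters come from the counts of the same cells, so their levels are a description. Muc2 stood at 8409.6 CPM in WT and 5875 CPM in KO in cluster 2, against 2471 and 3506 CPM in goblet-like cluster 1. In the 5 remaining clusters it lay between 139 and 1211 CPM.

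Plet1 reached 207 CPM in WT and 125 CPM in KO, against 7.98 and 9.58 CPM in cluster 1. B3gnt6 reached 98.9 and 63.3 CPM, against 10.1 and 16 CPM. Both were highest in cluster 2 in each library. Mt3 was highest in cluster 2 in WT only, at 125 CPM, while its 7.17 CPM in KO lay below the 12.3 CPM of KO cluster 5. Kcnh3 stood at 44.7 CPM in WT and 15.96 CPM in KO, where the 31 cells of KO cluster 6 gave 16.7 CPM.

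Markers of other cell types were also present. The 11 colonocyte markers summed to 2070.5 CPM in WT and 1249 CPM in KO, where Slc26a3 was at 0. Of these sums Guca2a alone gave 1304 and 155 CPM, against 273 and 277 CPM in cluster 4. The 11 markers summed to 5026 and 4207 CPM in cluster 4, and to 2166 and 1871 CPM in cluster 1. Only 3 of the 11 reached 50 UMIs in cluster 2. The 10 stem cell markers summed to 641 and 901 CPM, and the 12 cycling markers to 579 and 542 CPM. The 12 enteroendocrine markers summed to 6.49 and 14.2 CPM, with Pax6 and Scgn at 0 in both. The 9 tuft cell markers gave 14.1 and 5.38 CPM, with Pou2f3 at 0 in both, and the 8 stromal markers 27.8 and 5.92 CPM. The 10 immune markers summed to 79.2 and 81.4 CPM, and the 11 pancreatic enzymes to 73.3 and 44.5 CPM. The part of these genes in the differences between the libraries was not tested.

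**Figure D1:**
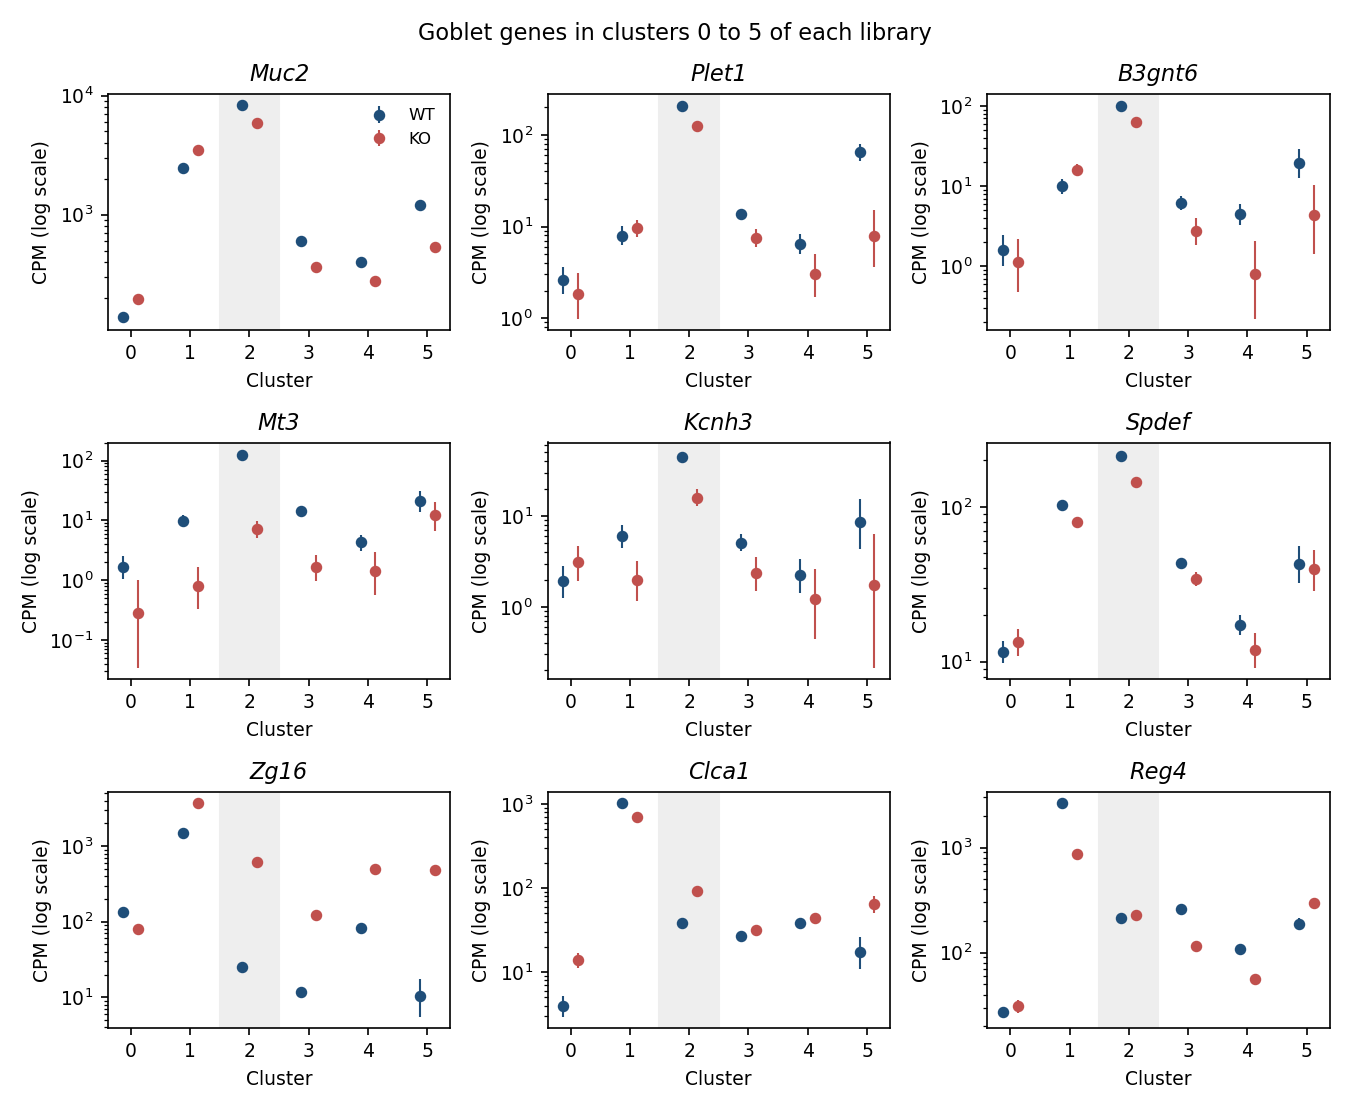
CPM (log scale) of 9 goblet genes in clusters 0 to 5 of the WT and KO libraries; points are summed-count CPM, bars are 95% counting intervals and grey marks cluster 2. Muc2, Plet1, B3gnt6 and Spdef are highest in cluster 2 in both libraries, and Zg16, Clca1 and Reg4 are highest in cluster 1.

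The genes that led cluster 2 over the highest other cluster are a description, because the clusters come from the counts of these same cells. The comparison took the 4888 genes whose cluster 2 level reached 20 CPM in each library. Of these, 232 (4.75%) lay above the highest other cluster in both libraries, with intervals that exclude equal levels. That share refers to genes already expressed in cluster 2, not to all measured genes. Agr2, a disulfide isomerase needed to fold Muc2, stood at 15177 CPM in WT and 13427 in KO, against 6387 and 8336 CPM in cluster 1. Spdef, a transcription factor of goblet maturation, stood at 213 and 144 CPM. Gfpt1, the entry enzyme of the hexosamine pathway that feeds glycosylation, stood at 1294 and 523 CPM. Cmah, which makes the sialic acid N-glycolylneuraminic acid, led the ranking at 46.5 and 140 CPM. The other leaders were Car8, Kcnk6, Rnase4, Stx17, Slc12a8, Ehf, Slc17a9, Pdia5, Abhd17b and B4galnt1.

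Against cluster 1, cluster 2 was a goblet population with more Muc2 and fewer of several other secreted products. Of 9674 genes with at least 50 UMIs in each library, 99 (1.02%) were at least 2-fold higher in both libraries and 94 (0.972%) at least 2-fold lower. Of 21 measured goblet products, 0 were higher in this sense and 5 lower: Clca1, Zg16, Ang4, Muc3 and Reg4. The list also holds membrane-bound mucins such as Muc3. Zg16, a lectin that binds bacterial cell walls, stood at 25.3 CPM in cluster 2 against 1489.5 in cluster 1 in WT, and at 623 against 3781 CPM in KO. Clca1, a mucus-processing protease, stood at 38.8 against 1029 CPM in WT and 92.7 against 707 CPM in KO. Reg4, a secreted lectin, stood at 212 against 2660 CPM in WT and 228 against 864 CPM in KO. For these 3 genes both libraries agreed in direction, with a smaller gap in KO.

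The lowest gene against cluster 1 was Mptx1, a pentraxin, with log2 ratios of cluster 2 over cluster 1 of -6.61 in WT and -3.52 in KO. Best2, a bicarbonate channel of colonic goblet cells, gave -4.63 and -2.14, and Sval1 gave -3.13 and -2.42. Fut9, Tcf7l1 and Apobec2 followed the same direction. Mptx1, Ang4, Muc3 and the Gal3st2 genes have close copies, between which counting can split reads. At the other end, Plet1 gave 4.70 and 3.71, Prnp 3.08 and 3.59, and Car8 2.35 and 2.31. Sct, which encodes secretin, and Fabp2, a fatty acid carrier, were also higher, at 1.96 and 2.59 for Sct and 1.76 and 1.84 for Fabp2.

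Genes of position along the body axis split in opposite directions between the goblet-like clusters. Of 16 measured, 7 were higher in cluster 2 and 3 lower, where over all genes 1.02% were higher and 0.972% lower. The higher genes were Hoxb3, Hoxb4, Hoxb5, Hoxb7, Hoxb8, the intestinal factor Cdx2 and Osr2. Osr2 stood at 17.1 against 1.62 CPM in WT and 30.3 against 3.15 CPM in KO. Cdx2 stood at 146 against 39.3 CPM in WT and 124 against 41.6 CPM in KO. The lower genes were Hoxb13, Hoxd11 and Hoxd13. Hoxb13 stood at 40.7 against 211 CPM in WT and 50.9 against 178 CPM in KO. Over all genes the median log2 ratio was 0.02 in WT and 0.07 in KO.

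Mucin glycosylation differed in a few enzymes. Of 51 measured genes, 3 were higher in cluster 2 (B3gnt6, B4galt4 and B4galnt2) and 3 lower (B3gnt7, Gcnt1 and Gal3st2). Over all genes 1.02% were higher and 0.972% lower. Gcnt1, a core 2 enzyme, stood at 15.6 against 39.0 CPM in WT and 10.4 against 36.3 CPM in KO. None of 27 measured endoplasmic reticulum chaperones and 33 translocation and trafficking genes passed 2-fold in both libraries, near those shares.

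**Figure D2:**
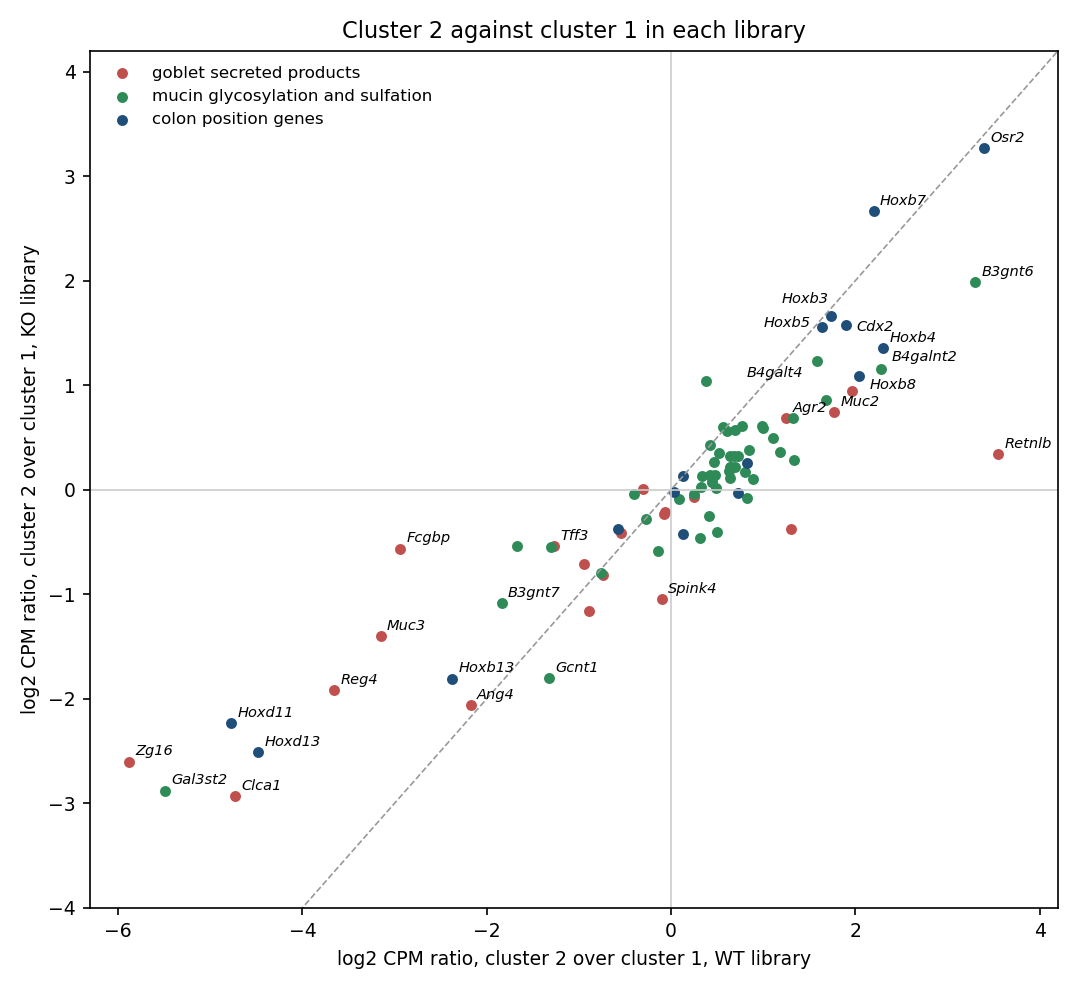
Each point is a gene, with the log2 CPM ratio of cluster 2 over cluster 1 in the WT library (horizontal) and the KO library (vertical); colours give 3 gene lists and the dashed line marks equal ratios. Hoxb3 to Hoxb8, Cdx2, Osr2 and B3gnt6 lie at the upper right, and Zg16, Clca1, Reg4, Hoxb13, Hoxd11 and Hoxd13 at the lower left.

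Cells of cluster 2 were not uniform. Clustering them alone gave 7 sub-clusters. Sub-cluster 0 held 40.8% of the WT cells and 23.7% of the KO cells, and carried the imprinted genes Meg3 and Dlk1, together with Nov, Mptx1 and Sval1. Sub-cluster 1 held 19.0% and 29.2%, and was led by Rgs2, Lgals2, Reg4 and Cxxc4. Hoxb13 separated them, at 61.7 CPM in WT and 92.2 in KO in sub-cluster 0 against 2.0 and 3.4 CPM in sub-cluster 1, while Osr2 was among the leaders of sub-cluster 1, at 57.9 and 55.0 CPM. Since the sub-clusters were built from these genes, this is a description.

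Sub-cluster 3 held 11.5% of the WT cells and 21.9% of the KO cells. Its Muc2 level was low, at 1816 CPM in WT and 1506 CPM in KO, and Prelp, Hmgn2 and Ptma led it. Sub-cluster 4, with 44 WT and 22 KO cells, was led by genes of DNA replication such as Uhrf1, Mcm3 and Dtl. Sub-cluster 5 was shallow, with a median of 2374 and 2306 UMIs.

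Sub-cluster 2 held 119 WT and 80 KO cells, with a median of 22290.0 and 17456 UMIs, and was led by Nlrp6, Dmbt1 and Tm4sf20. In it 35.3% of WT cells and 31.3% of KO cells had both Xist and Y-linked UMIs, against 1.32% to 8.94% in sub-clusters 0, 1 and 3. Sub-cluster 6 held 20 WT and 12 KO cells and was led by the macrophage genes Mrc1 and C1qa, with 30% and 25% of such cells. Its immune markers summed to 1486 CPM in WT and 1691 CPM in KO. Their part in the results was not tested beyond leaving them out, which changed the counts given in the closing section.

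**Figure D3:**
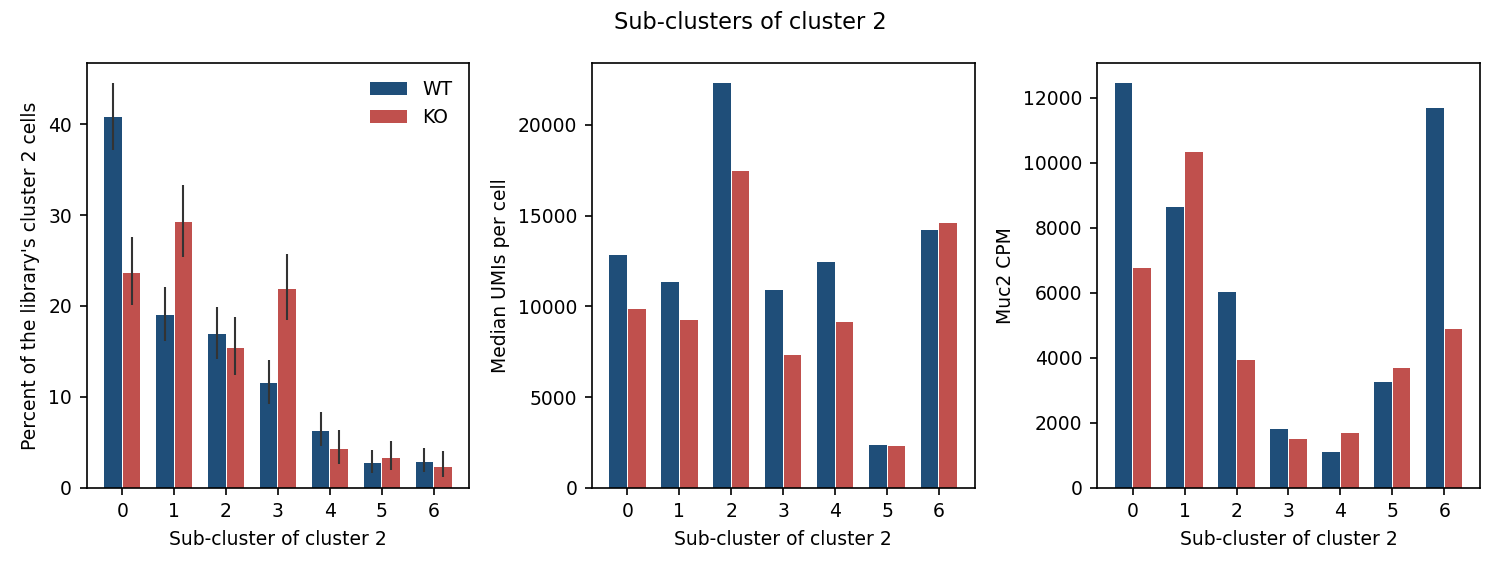
Sub-clusters of cluster 2 in WT and KO: percent of the library's cluster 2 cells with exact 95% intervals (left), median UMIs per cell (middle) and Muc2 CPM (right). Sub-cluster 0 holds 40.8% of WT and 23.7% of KO cells, and sub-cluster 2 has the highest median depth.

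Over the cells of cluster 2, thinned to 3000 UMIs, Muc2 varied widely. The median was 21 UMIs in 684 WT cells, with quartiles of 8 and 36, and 13 UMIs in 506 KO cells, with quartiles of 4 and 26. The genes whose counts ran most alike with Muc2, by the lower Pearson r of the libraries among 1705 genes, were Ccl6 (0.53 in WT, 0.59 in KO), a chemokine, and Retnlb (0.47 and 0.57), a goblet antibacterial protein. Tgoln1, Tspan1, Sval1, Agr2, Ramp1, S100a6, Pglyrp1 and Nupr1 followed. Ptma ran most opposite, at -0.52 and -0.50. Cells share their library and the thinned total, so these are descriptions.

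Mettl14 itself was sparse in cluster 2, with 62 UMIs in WT and 11 in KO, which is 6.19 and 1.97 CPM and gives a ratio of -1.65 (-2.72 to -0.71). By sub-cluster it was 0.23 (-1.28 to 1.57) in sub-cluster 0, with 17 WT and 7 KO UMIs, and -3.73 (-9.08 to -1.12) in sub-cluster 2, with 26 and 1. Without sub-clusters 2 and 6 it was -0.97 (-2.15 to 0.08), an interval that includes equal levels. In the cells kept under other rules the ratio lay between -2.57 and -0.57. Mettl3, the catalytic partner, stood at 11.3 against 7.71 CPM, a ratio of -0.55 (-1.09 to -0.03). The 3' tags do not show which part of the transcript is deleted.

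Between the libraries, cluster 2 in KO had less Muc2, Spink4 and Guca2a and more Tff3, Fcgbp, Zg16 and Spink1. Of 10177 genes with at least 50 UMIs, 1467 (14.4%) were at least 1.5-fold higher with an interval excluding equal levels, and 1696 (16.7%) lower. The median over all of them was -0.08. Of 23 measured goblet products, 11 were higher and 5 lower in these terms, with a median of 0.53.

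Tff3, a trefoil peptide of mucus, stood at 1859 CPM in WT and 13326 CPM in KO, a ratio of 2.84 (2.82 to 2.87). Fcgbp, a mucus scaffold protein, stood at 166 and 1074 CPM, a ratio of 2.69 (2.61 to 2.77), where cluster 1 gave 0.32. Its sub-cluster ratios ran from 0.52 in sub-cluster 3 to 3.79 in sub-cluster 1. The 51 thinned KO cells with the most, of 506, held 58.9% of its UMIs, and the top 68 of 684 WT cells held 60.7%. For Tff3 the 51 KO cells with the most of it held 43.1% and the 68 WT cells 43.5%. The Tff3 ratio was 0.07 (-0.01 to 0.14) in sub-cluster 3. Zg16 stood at 25.3 and 623 CPM, a ratio of 4.62 (4.44 to 4.81). In the 51 KO cells with the most lay 93.6% of its thinned UMIs, and in the 68 WT cells with the most lay 100%. Zg16 was also seen in KO clusters of other types, at 500.3 CPM in cluster 4 and 487 CPM in cluster 5. In thinned cells a Zg16 UMI was found in 20.4% of KO cells of cluster 2, against 8.33% of KO cluster 4 and 6.04% of KO cluster 5, with 3.8% in WT cluster 2. The ratio was 7.35 among cells with at least 3 Xist and no Y-linked UMIs (Xist cells), 48.7% of cluster 2 in WT and 47.7% in KO. It was 2.15 among cells with Y-linked and no Xist UMIs (Y-linked cells), 31.0% in WT and 22.3% in KO.

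Spink1, a trypsin inhibitor, stood at 289.7 CPM in WT and 9445 CPM in KO, a ratio of 5.03 (4.97 to 5.08). In KO the 51 thinned cells with the most, of 506, held 54.4% of its counts, against 68.0% in the top 68 of 684 WT cells. The KO quartiles were 1 and 29.75 UMIs, with a median of 4. Spink1 stood at 30231 CPM in KO cluster 1, a ratio of 2.57. Its ratios in clusters 0, 3, 4 and 5 lay between 0.89 and 3.55. Spink4, another goblet peptide of the family, differed in the other direction, at 14589 and 2978 CPM, a ratio of -2.29 (-2.32 to -2.27). Ang4, an antimicrobial ribonuclease with close copies, stood at 66.4 and 8.25 CPM, a ratio of -3.01 (-3.47 to -2.58) that ranged from -4.90 to -2.00 over the alternatives. Retnlb stood at 1218 and 2788 CPM, but its ratio of 1.19 was 1.90 in Xist cells and -0.05 in Y-linked cells. Muc6, a gastric-type mucin, had 0 UMIs in WT and 100 in KO, at least 59.9-fold higher when the summed WT count is set to 3.

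Muc2 was lower by 0.52 in log2 terms (-0.54 to -0.50), short of the 1.5-fold rule. The other markers were lower over the whole cluster: Plet1 at -0.73 (-0.85 to -0.60), B3gnt6 at -0.64, Kcnh3 at -1.49 and Mt3 at -4.13 (-4.62 to -3.67). By sub-cluster, Muc2 gave -0.88 in sub-cluster 0 and 0.26 in sub-cluster 1, so the direction was not shared. In sub-cluster 1, Plet1 gave 0.18 (-0.09 to 0.45) and B3gnt6 -0.29 (-0.68 to 0.08), both with intervals that include equal levels. Mt3 was lower in each of the 4 largest sub-clusters, between -4.96 and -3.38.

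**Figure D4:**
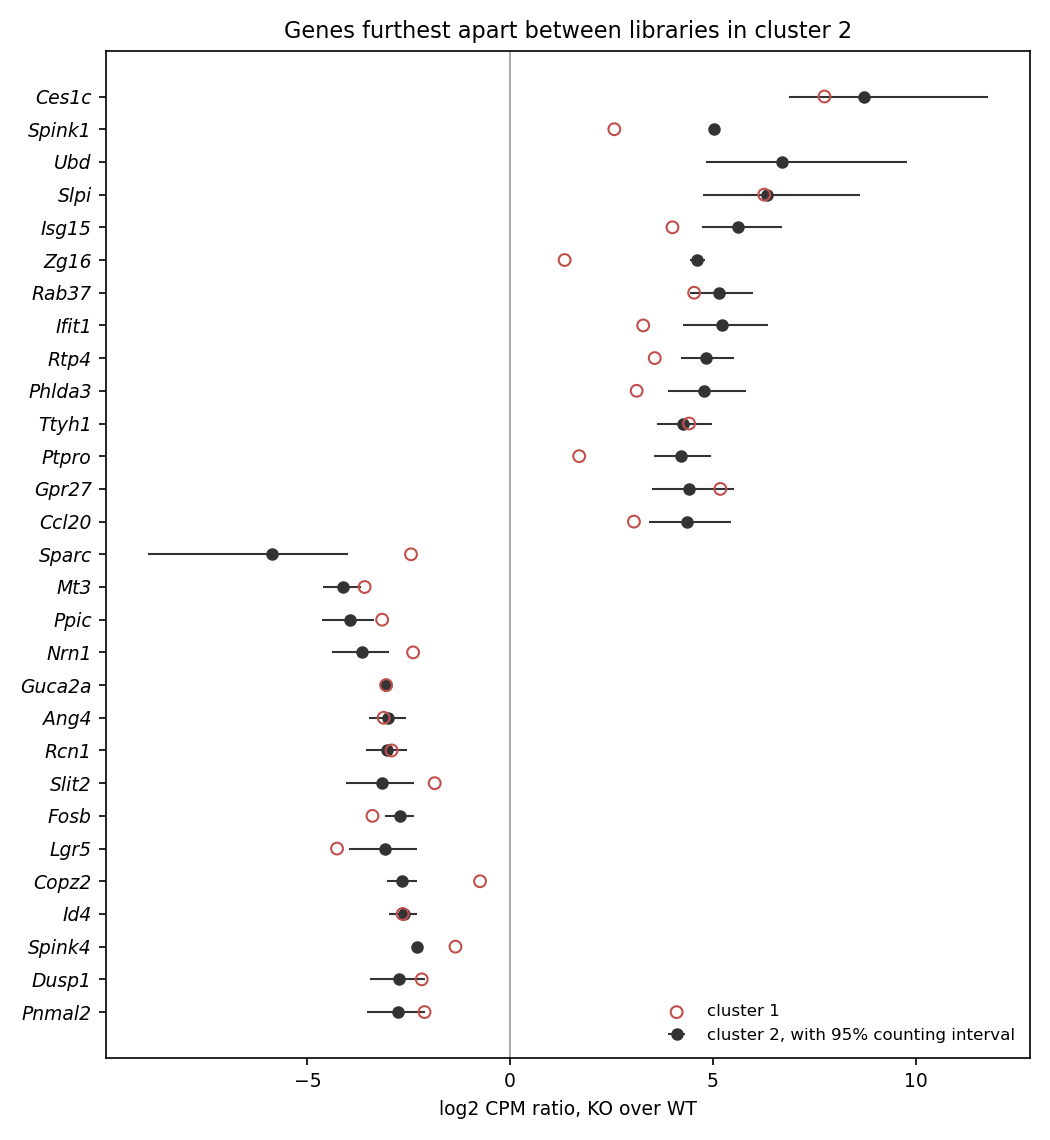
log2 CPM ratio, KO over WT, of the 29 genes furthest apart in cluster 2 that have UMIs in both libraries (black, with 95% counting interval) and the same ratio in cluster 1 (open red, not drawn for Ubd, which had 0 WT UMIs there). Spink1 and Zg16 lie further to the right in cluster 2 than in cluster 1, and Guca2a gives nearly the same ratio in both.

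Of 33 genes of translocation and traffic, 0 were higher, 8 lower and 25 did not pass, with a median of -0.33, where over all genes 14.4% were higher and 16.7% lower. Kdelr2, a retrieval receptor of the endoplasmic reticulum, stood at 599.7 and 243 CPM, a ratio of -1.30 (-1.39 to -1.22), and Ssr3, of the translocon, gave -1.08. Of 52 glycosylation genes, 9 were higher and 10 lower, with a median of -0.20, and these counts lay near the shares over all genes. Gfpt1 gave -1.31 (-1.36 to -1.25) and Galnt6, which starts O-glycans, -1.29. C1galt1, the core 1 enzyme, gave 0.61. Of 27 chaperones, 2 were higher and 3 lower, with a median of -0.02: Hspa5, or BiP, gave 1.01 (0.96 to 1.06) and Edem1 -1.01.

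Among 25 transcription factors and signals of secretory fate, 4 were higher and 5 lower, near the 14.4% and 16.7% over all genes. Creb3l1 and Creb3l4, membrane-bound factors of secretory cells, gave -1.23 and -1.36, and Hes1, a Notch target, -0.88. Klf4, a goblet differentiation factor, gave 0.89 against 0.00 in cluster 1, and Sox4 gave 1.17. Sox4 ranged from 0.56 to 2.2 over the alternatives. Of 10 stem cell markers, 1 was higher and 6 lower, while their summed level was 641 CPM in WT and 901 CPM in KO. Lgr5 stood at 21.3 and 2.51 CPM, a ratio of -3.08 (-3.98 to -2.30). Few of its UMIs lay in sub-cluster 0 (7 in WT, 0 in KO) or sub-cluster 1 (2 and 1). Slc12a2 went the other way, at 1.55 in sub-cluster 0 and 0.74 in sub-cluster 1.

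Of 31 interferon-response genes, 23 were higher and 0 lower, against 14.4% and 16.7% over all genes, with a median of 1.32. On the 28 genes measured in both clusters the median was 1.28 in cluster 2 and 0.66 in cluster 1. Isg15, a ubiquitin-like protein, stood at 0.998 and 49.1 CPM, a ratio of 5.62 (4.72 to 6.70). Ifit1 gave 5.22 and Rtp4 4.83. MHC class I genes did not follow: of 17, 0 were higher and 2 lower. Of 22 NF-κB genes, 8 were higher and 2 lower, led by the chemokine Ccl20 at 4.36. Ccl20 stood at 20.4 CPM in KO cluster 2. In KO clusters 0, 1, 3, 4 and 5 it lay between 7.89 and 528 CPM, highest in cluster 0. Of 16 antimicrobial and acute phase genes, 8 were higher and 4 lower: the protease inhibitor Slpi stood at 0.299 and 24.03 CPM, and the lectin Reg3g at 15.4 and 145 CPM. In KO clusters 0, 1, 3, 4 and 5 Slpi lay between 22.1 and 551 CPM. It was highest in cluster 1, where its ratio was 6.27.

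Of 20 p53 targets, 9 were higher and 3 lower, where over all genes 14.4% were higher and 16.7% lower, among them Phlda3 at 4.78 and the cell cycle inhibitor Cdkn1a at 2.17. Of 19 genes of the integrated stress response, 8 were higher and 3 lower, led by Chac1 at 5.78, with 3 WT UMIs behind it. Immediate early genes were mostly lower, 13 of 23 with 3 higher, at a median of -0.95: Fos stood at 324 and 96.9 CPM and Fosb at 86.3 and 13.1 CPM.

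Of 21 colonocyte transport genes, 8 were higher and 6 lower, where over all genes 14.4% were higher and 16.7% lower. Their median was -0.05, against -0.08 over all genes. Guca2a, which encodes guanylin, stood at 1304 and 155 CPM, a ratio of -3.07 (-3.17 to -2.97), with -3.06 in cluster 1. Best2 gave 2.47, against -0.02 in cluster 1, and Scnn1b, a sodium channel subunit, 2.70. Akr1c21, a steroid dehydrogenase, had 0 UMIs in WT and 558 in KO, at least 334-fold higher with the summed WT count set to 3, and its KO level of 100.1 CPM compared with 1.40 CPM in KO cluster 1. A UMI of it was found in 15.8% of unthinned and 10.1% of thinned KO cells.

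The counts of the smaller groups stand beside 14.4% higher and 16.7% lower over all genes. Of 22 granule and exocytosis genes, 5 were higher and 3 lower, near those shares: Vamp8, a fusion protein of secretory granules, stood at 175 and 279 CPM, and Snap23, its partner at the cell surface, at 41.1 and 22.8 CPM. Of 11 metallothionein and zinc genes, 3 were higher and 3 lower. Mt1 stood at 662 and 1264 CPM, a ratio of 0.93 (0.88 to 0.98), while Mt3 of the same family was lower, and the zinc importer Slc39a5 gave -3.74. Of 9 potassium channel genes, 4 were higher and 3 lower: Kcne3, a channel subunit of chloride secretion, stood at 36.2 and 138 CPM, and Kcnma1 at 24.7 and 11.5 CPM.

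Against the same 14.4% and 16.7% over all genes, 3 of 17 position genes were higher and 6 lower. Hoxa7, Hoxa9 and Hoxa10 gave -1.37, -1.41 and -1.53, and Hoxb7 and Hoxb9 gave 1.03 and 0.67. Sub-cluster 0 gave the same directions for these genes. In sub-cluster 1, Hoxb7 gave 0.22 (-0.29 to 0.73) and Hoxa7 -0.62 (-1.49 to 0.21), intervals that include equal levels. Hoxa9, Hoxa10 and Hoxb9 kept their direction there, at -2.29, -1.83 and 0.37. Of 31 cell death genes, 9 were higher and 5 lower: Bax, a pore former of mitochondrial apoptosis, stood at 94.7 and 258 CPM, and Bcl2, which opposes it, at 47.7 and 17.8 CPM. Of 13 regeneration genes, 4 were higher and 3 lower, among them Ly6a at 26.6 and 247 CPM. Of 5 MHC class II genes, 0 were higher and 3 lower, all below 12 CPM in WT. With sub-clusters 0, 1 and 3 weighted equally, 0 were higher and 0 lower of the 4 that could be measured, and the median turned from -0.77 to 0.26. Among these class II genes H2-Aa was a leader of sub-cluster 6, which macrophage genes led, at 235 CPM in WT and 130 CPM in KO. It had 11 WT UMIs in sub-cluster 0 and 4 in sub-cluster 1. Of 22 m6A factors, 3 were higher and 1, Mettl14, lower, near the shares over all genes for the higher count: the reader Ythdf2 gave 1.47 (1.32 to 1.62), Rbm15 0.96 and Ythdf1 0.84. Of 12 cycling markers, 2 were higher and 3 lower.

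**Figure D5:**
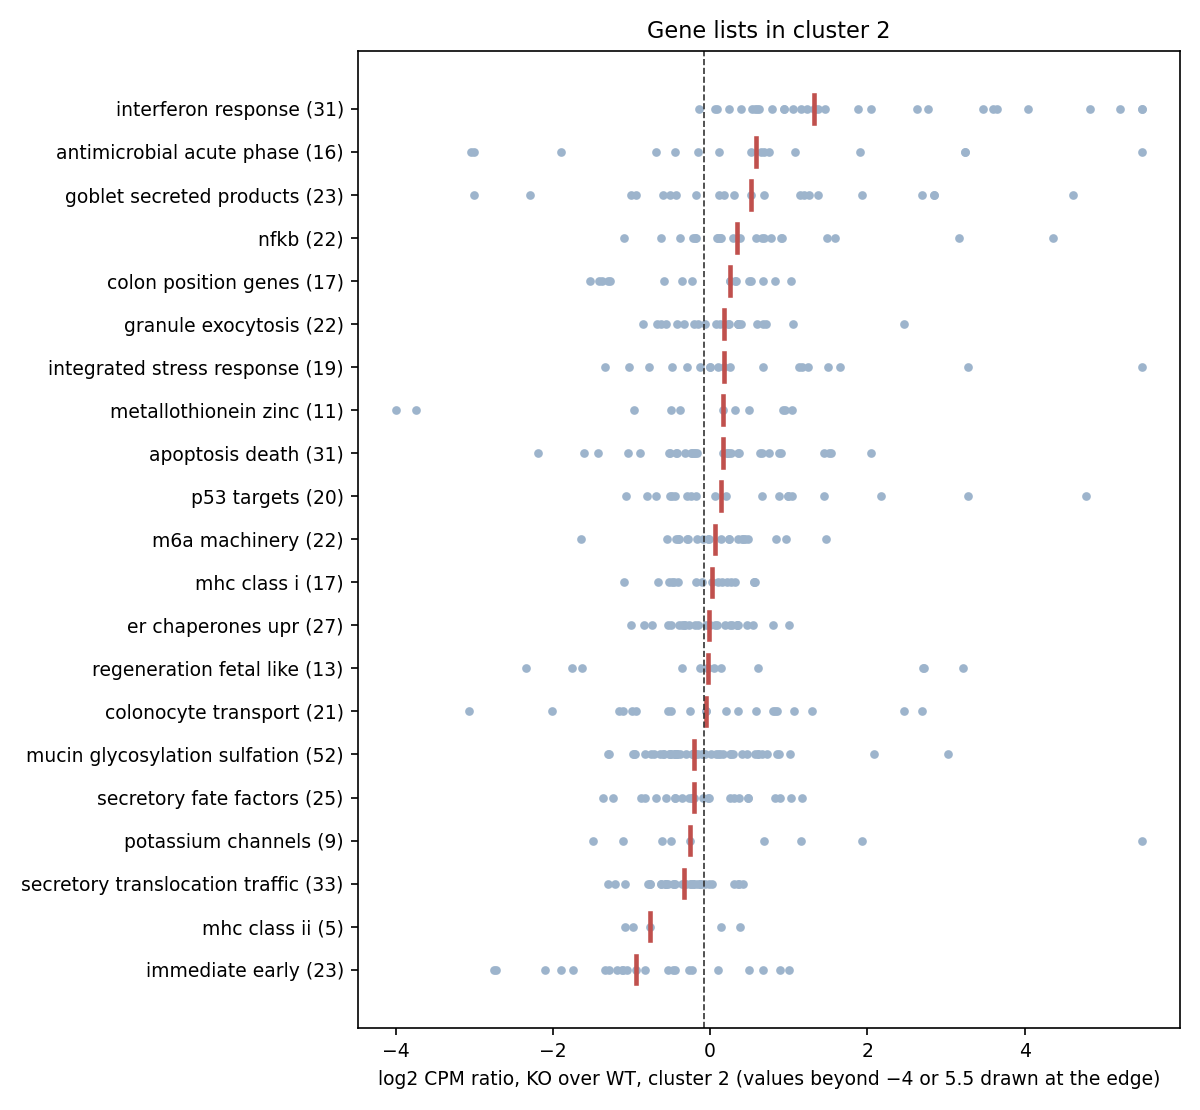
log2 CPM ratio, KO over WT, of the measured members of 21 gene lists in cluster 2; each point is a gene, red bars are list medians, numbers give measured members and the dashed line is the median of all genes at -0.08. The interferon list has the highest median, 1.32, and the immediate early list the lowest, -0.95.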

How the data were processed

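The authors deposited UMI counts per gene and cell as a filtered matrix of 17829 genes and 7863 cells, with a table of each cell's library and cluster. Per the submitters' processing notes, bcl2fastq, Cell Ranger and mm10 were used; versions, the cell filter and the clustering method are not given in the sources used here. Counts were summed per cluster and library and divided by their total (CPM). Ratios have exact conditional binomial intervals, CPM exact Poisson and shares exact Clopper-Pearson intervals, all at 95% and for counting error only. Genes needed 50 UMIs over both libraries. Named genes were the markers, the 15 highest and 15 lowest KO over WT and 12 against cluster 1 ranked on the interval limit closest to 0 among genes above 20 CPM, up to 6 per list, and list members by fixed rule. The members and the 33 lists were chosen with earlier results of these data known. Sub-clusters came from 1500 variable genes, 20 components, 15 neighbours and Leiden at resolution 0.5 (leidenalg 0.10.2). No doublet caller was run; cells with Xist and Y-linked UMIs were left out as an alternative. Other settings, 24 listed at the start and 4 added after seeing the data, are compared in the closing section. Promoters are from RefSeq, GRCm38.p6; of the 4 motifs searched, TATAA was added after the sequences had been read. The calculation was tested on simulated Poisson counts. These lack the spread over cells, so the simulation cannot show how the intervals behave under it.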

Additional observations from a re-analysis of the deposited data

Results flagged for a closer look

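Several genes had KO over WT ratios (log2) of opposite sign in clusters 2 and 1, and the difference between the clusters was not tested. Lower in cluster 2 and higher in cluster 1 were Muc2 (-0.52 and 0.50), B3gnt6 (-0.64 and 0.67), Muc3a (-0.44 and 0.58) and Muc4 (-0.60 and 1.07). In sub-cluster 0 these genes were lower as well. Sub-cluster 1 differed, with Muc4 at 1.14 (0.56 to 1.75) and Muc2 at 0.26. There B3gnt6 at -0.29 (-0.68 to 0.08) and Muc3a at -0.25 (-0.59 to 0.08) had intervals that include equal levels. Higher in cluster 2 and lower in cluster 1 were Clca1 (1.26 and -0.54), Gng11 (0.63 and -0.62), Mptx1 (0.75 and -2.34), Muc3 (1.37 and -0.38) and Reg4 (0.11 and -1.62). Over the 9938 genes measured in both clusters, 11 were at least 1.5-fold lower in cluster 2 and higher in cluster 1, and 12 the reverse. B3gnt6, Muc4, Gng11 and Mptx1 were among these. The other genes named fell short of 1.5-fold in cluster 1, cluster 2 or both.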

How the results depend on the processing

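No paired analysis was possible because each genotype had 1 library; none could be left out. Cluster 2 held 16.7% of WT and 14.2% of KO cells. Own clustering gave 13.7% and 9.55%, leaving out sub-clusters 2 and 6 gave 13.4% and 11.7%, and cells with at most 10% mitochondrial UMIs gave 16.3% for KO. Against 1467 higher and 1696 lower genes, thinning gave 912 and 946, a minimum of 200 UMIs 951 and 997, a 2-fold rule 643 and 649, and cells with Y-linked and no Xist UMIs 879 and 1043; low-mitochondrial cells gave 1087 lower. Against 99 higher and 94 lower than cluster 1, thinning gave 54 and 57, a 1.5-fold rule 287 and 237, low-mitochondrial cells 55 and 54, and leaving out sub-clusters 2 and 6 gave 173 lower. Signs turned for these KO over WT values. In low-mitochondrial cells Car1 and the colonocyte median were 0.16 and the immune median -0.71, and it was -0.11 after thinning. In Y-linked cells Car1 and the colonocyte median were 0.18, H2-Eb1 0.41, Retnlb -0.053, the goblet median -0.13 and the position median -0.26. Notch1 was 0.30 in Xist cells, 2.05 in matched own clusters and 1.04 without sub-clusters 2 and 6. In matched own clusters Muc3 was -0.042, the cycling median 0.39 and the potassium channel median 0.62; without sub-clusters 2 and 6 these medians were 0.11 and 0.65. With sub-clusters 0, 1 and 3 weighted equally the cycling median was 0.66, the position median -0.43 and the MHC class II median 0.26. The cause was not tested. In the matched own clusters, 1 held 491 WT and 13 KO cells of cluster 2 and the other 28 and 303.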
